A study of Homo sapiens with 18 samples.

Results

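The 9 genes described here are a set of NRF2 antioxidant genes, NFE2L2, KEAP1, MAFG, GCLC, GCLM, TXNRD1, SRXN1, NQO1 and HMOX1, taken by symbol from the 60252 gene IDs of the deposited count files, where each matched 1 ID. They were followed in total RNA of ZR-75-1, an established luminal breast cancer cell line. A control line (labelled SHC) and a line with ADAR knocked down were each left untreated, given DMSO as vehicle or given 100 nM triptolide for 16 h, all in medium with reduced serum and with antibiotics. Each of the 6 groups held 3 libraries, numbered 1 to 3 and labelled biological replicates, 18 in all. ADAR edits adenosine to inosine in double-stranded RNA, and triptolide, named in the series as an RNA polymerase II inhibitor, blocks transcription initiation through TFIIH. The labels name 1 knockdown line, so its effects cannot be told apart from other differences between the lines.

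NRF2, the product of NFE2L2, is a transcription factor that is made continuously and destroyed quickly, because KEAP1 hands it to a CUL3 ubiquitin ligase. Oxidants and electrophiles disable KEAP1, and NRF2 then pairs with a small MAF protein such as MAFG and binds antioxidant response elements beside genes for glutathione synthesis, thioredoxin recycling, quinone reduction and heme breakdown. Most of this control acts on the NRF2 protein, which RNA counts do not measure.

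Counts in genes came to 26.7 to 35.7, in units of 1e6, per library. Mitochondrial ribosomal RNA took 20.2 to 37.1% of them in the 12 libraries without triptolide and 42.7 to 55.2% in the 6 with it; its part in the results was not tested, beyond the scalings given where they change a direction. Of the luminal markers checked, 11 of 11 reached a mean of 1 CPM, with KRT8 at 2730 and ESR1 at 44.3 CPM. Stromal markers reached it for 1 of 6 (COL1A1) and endothelial markers for 1 of 3 (VWF), while LUM was at 0, and basal-like markers for 4 of 7. In this bulk RNA, fewer cells of a type and less RNA per cell cannot be told apart. Levels below are TMM-scaled counts per 1e6 counts (CPM), so they are relative to the other RNA of the same library.

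ADAR mRNA, the knockdown's target, had a lower level in knockdown cells in 9 of 9 pairs of libraries with equal numbers. It stood at 51 to 74% of control untreated, 53.6 to 77.5% with DMSO and 31.2 to 44.4% with triptolide. By the edgeR test without a replicate block the differences were not called (adjusted p = 1, 1 and 0.325), and with the block the triptolide difference was called, at a log2 difference of -1.42 (adjusted p = 0.000192).

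Values are levels in CPM, or log2 differences between groups with their standard error (SE) from 1 edgeR fit of all 18 libraries. A gene was called at a Benjamini-Hochberg adjusted p under 0.05 over the 21285 genes that passed the low-count filter. Of the 9 genes, 8 passed it and SRXN1 did not. Libraries with the same replicate number deviated from their groups together, so a second fit with the number as a block is given beside each of the 8 genes where it changes a call, and beside counts of the gene lists where it moves them by over 1.5 times.

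The 9 genes differed widely in level. Divided by the length of the main (MANE Select) transcript, NQO1, the quinone reductase, led in untreated control cells at 59.8 ± 14.8 CPM per kb (SD, n = 3), followed by TXNRD1, the cytosolic thioredoxin reductase, at 29.1 ± 5.08. NFE2L2 stood at 21.5 ± 8.78, GCLC at 13.9 ± 2.44 and KEAP1 at 13.4 ± 3.94 CPM per kb. Lower were GCLM at 2.87 ± 0.844, MAFG at 2.29 ± 0.736 and HMOX1, heme oxygenase 1, at 1.89 ± 1.13 CPM per kb. In that order the libraries of TXNRD1 and NFE2L2, of NFE2L2 and GCLC, of GCLC and KEAP1, of GCLM and MAFG, and of MAFG and HMOX1 overlapped, while NQO1 stood clear of TXNRD1 and KEAP1 of GCLM. The place of NFE2L2 rests on the length used: over all its annotated exon bases, which include long extended transcripts, it had 3.50 CPM per kb, below KEAP1 at 9.60 and GCLC at 6.09.

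SRXN1, sulfiredoxin, which restores over-oxidised peroxiredoxins, had 18 counts over the 18 libraries, at most 7 in one, and 0 in 11 of them. Its exons share 90.7% of their bases with an overlapping gene model on the same strand (ENSG00000270299), which had 115 counts in all. A read in the shared bases fits both models, so the SRXN1 count is uncertain and no comparison was made with it.

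The antioxidant response element has the core TGACNNNGC. It was searched on both strands from 1000 bases before to 50 bases after the start of the MANE Select transcript in GRCh37, because these are the letters that NRF2 with a small MAF protein reads. Of the 9 genes, 4 (44.4%) held it in this window, against 5130 of 14477 genes tested (35.4%). The form TGACTCAGC, which also holds the letters that AP-1 factors read, was in 1 of the 9 (NQO1) and in 194 of the 14477 (1.34%). The matches are shown to let the gene with the full form be set beside those with only the looser one. Capitals mark the 9 bases of the core, and each is printed 5′ to 3′ on the strand that carries it:
NQO1: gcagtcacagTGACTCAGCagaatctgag
GCLM: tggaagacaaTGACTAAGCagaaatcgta
TXNRD1, first: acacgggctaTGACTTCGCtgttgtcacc
TXNRD1, second: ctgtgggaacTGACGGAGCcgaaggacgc
GCLC: aaatatgtgtTGACAGAGCaatgacctgt

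The NQO1 core lies at chr16:69760910-69760918 on the minus strand, 455 bases before the start (counted from its far end), in an exon of the divergent transcript NQO1-DT. The GCLM core lies at chr1:94375012-94375020 on the plus strand, 34 bases before the start, touching the first exon of another GCLM transcript. The TXNRD1 cores lie at chr12:104609458-104609466 (plus strand, 99 bases before, outside annotated genes) and chr12:104609549-104609557 (minus strand, 8 bases before, its last position being the first base of exon 1). The GCLC core lies at chr6:53410761-53410769 on the plus strand, 870 bases before the start and inside an intron of longer GCLC transcripts. For NFE2L2, KEAP1, MAFG, SRXN1 and HMOX1 these letters are not in this window, which says nothing of elements farther away. A match is a description of sequence, and binding was not measured.

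**Figure D1:**
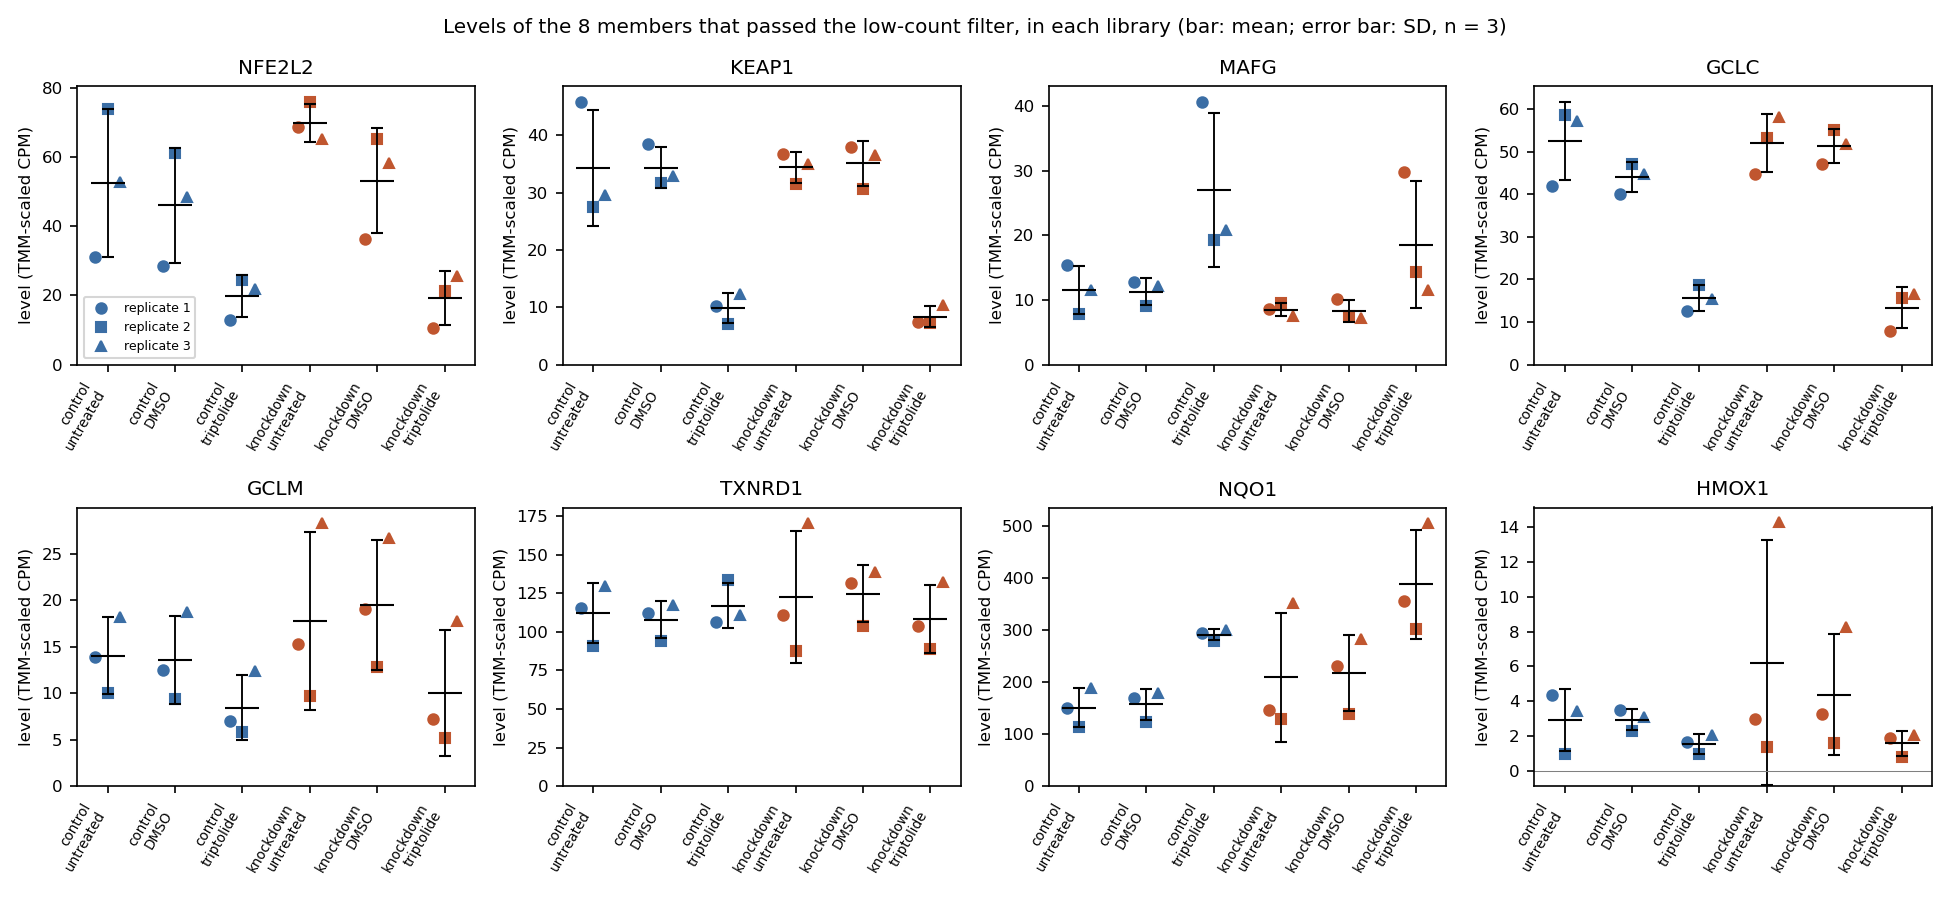
Level of each gene in every library, in TMM-scaled CPM (linear axis, a separate scale for each gene), for the 6 groups; markers show replicates 1 to 3, horizontal bars the mean and error bars the SD of 3 libraries. NFE2L2, KEAP1 and GCLC sit lower in triptolide libraries of both lines, and MAFG and NQO1 higher on this relative scale. Scaled to mitochondrial mRNAs, MAFG and NQO1 were not called in either line, and their direction turned around in knockdown cells. The HMOX1 error bar of untreated knockdown cells runs below 0 because 1 library stands at 14.2 CPM.

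Triptolide against DMSO asked which of these RNAs were lower or higher, relative to the rest, after transcription was inhibited. The sensor and the factor fell in both lines: KEAP1 was 3.47-fold lower in control and 4.20-fold lower in knockdown cells, and NFE2L2 2.33-fold and 2.77-fold lower. GCLC, the catalytic subunit of the enzyme that starts glutathione synthesis, fell 2.82-fold and 3.83-fold. MAFG rose 2.38-fold and 2.24-fold relative to other genes. Scaled to mitochondrial mRNAs, MAFG was not called in either line, and its direction turned around in knockdown cells. NQO1 was higher in 3 of 3 pairs of each line. The main edgeR fit, TMM-scaled and without the replicate block, did not call it, while the fit with the block and DESeq2 did. TXNRD1 was not called in either line with or without the block. Without the block 4 of the 8 genes were called in each line, 1 higher and 3 lower, where 30.8% of all genes tested were called in control cells (14.9% higher, 16% lower) and 35.7% in knockdown cells (16.7% higher, 18.9% lower). The median of the 8 log2 differences was -0.80 in control and -1.20 in knockdown cells, against 0.03 and 0.04 over all genes tested.

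Among the regulators, NFE2L2 (ENSG00000116044, chr2:178083395-178257484, minus strand, GRCh37) stood at 28.4, 61.1 and 48.4 CPM in the control DMSO libraries 1 to 3 and at 12.9, 24.5 and 21.9 CPM with triptolide. In knockdown cells it had 36.2, 65 and 58.2 CPM with DMSO and 10.6, 21.2 and 25.7 CPM with triptolide. Library 1 was the lowest of its group in 5 of the 6 groups, and the DMSO and triptolide libraries did not overlap in either line. The log2 differences were -1.22 ± 0.37 (SE) in control and -1.47 ± 0.37 in knockdown cells (edgeR adjusted p = 0.019 and 0.00547). The control call was lost without control triptolide library 1 (-0.996, adjusted p = 0.086) or without control DMSO library 2 (-0.95, adjusted p = 0.0888), which with MAFG left 2 of the 8 genes called. With the replicate block it was -1.20 at adjusted p = 2.41e-05. Its annotated exons share 13.6% of their bases with genes on the same strand and 24.8% with genes on the other, and whether strand was used in counting is not given in the sources used here.

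KEAP1 (ENSG00000079999, chr19:10596801-10614234, minus strand), the adaptor that brings NRF2 to its ligase, had 38.4, 31.8 and 32.9 CPM in control DMSO libraries and 10.2, 7.11 and 12.4 CPM with triptolide. In knockdown cells it went from 38, 30.7 and 36.6 to 7.38, 7.19 and 10.5 CPM. No DMSO library came near a triptolide library. These were the largest differences among the 8 genes in both lines, at -1.79 ± 0.24 and -2.07 ± 0.25 on the log2 scale (edgeR adjusted p = 5.32e-05 and 1.14e-05), and the calls held without any one of the libraries compared.

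MAFG (ENSG00000197063, chr17:79876146-79885611, minus strand), a small MAF partner with no activation domain of its own, had 12.8, 9.01 and 12.2 CPM with DMSO and 40.7, 19.3 and 20.9 CPM with triptolide in control cells. The knockdown libraries held 10.2, 7.48 and 7.18 CPM with DMSO and 29.8, 14.4 and 11.5 CPM with triptolide. Library 1 was the highest with triptolide in each line. The log2 differences of 1.25 ± 0.35 and 1.16 ± 0.35 were called by edgeR (adjusted p = 0.0123 and 0.0164). The control call ended without triptolide library 1 (0.82, adjusted p = 0.102) or DMSO library 2 (1.12, adjusted p = 0.0504). The knockdown call ended without triptolide library 1 (0.63, adjusted p = 0.165), DMSO library 2 (1.08, adjusted p = 0.0583) or DMSO library 3 (1.05, adjusted p = 0.066). With the block both were called (adjusted p = 0.000143 and 0.000293).

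The direction given for MAFG and NQO1 holds relative to other nuclear genes. When libraries were scaled to the 13 mitochondrially encoded mRNAs, which RNA polymerase II does not make, the median of all genes tested shifted by -0.82 in control and -1.41 in knockdown cells on the log2 scale, and 1064 genes were called higher and 5988 lower in control and 827 and 11413 in knockdown cells. MAFG then differed by 0.45 in control (adjusted p = 0.493) and by -0.26 in knockdown cells (adjusted p = 0.65), and NQO1 by 0.07 (adjusted p = 0.917) and -0.65 (adjusted p = 0.179). Against the shifted median they stood at 1.24 and 1.11 for MAFG and 0.85 and 0.72 for NQO1. This scaling also shifted comparisons without triptolide, by 0.55 for the vehicle in knockdown cells and by 0.57 between lines with DMSO. Smaller shifts were -0.19 for the vehicle in control cells, -0.18 between lines untreated and -0.03 between lines with triptolide. The part of the knockdown DMSO libraries in the shift of -1.41 was not tested. NFE2L2, KEAP1 and GCLC were called lower under this scaling as well, among 5 lower and 0 higher of the 8 genes in control and 6 lower and 0 higher in knockdown cells. The others called lower were GCLM and HMOX1 in both lines and TXNRD1 in knockdown cells.

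The 2 subunits of glutamate-cysteine ligase, the first enzyme of glutathione synthesis, were both lower with triptolide in 3 of 3 pairs of each line, by different amounts. GCLC (ENSG00000001084, chr6:53362139-53481768, minus strand) had 40.2, 47.1 and 44.8 CPM in control DMSO and 12.6, 18.8 and 15.5 CPM in control triptolide libraries. In knockdown cells the values were 47.1, 55.2 and 51.8 CPM against 7.92, 15.7 and 16.5 CPM. The groups stood far apart in both lines, with log2 differences of -1.49 ± 0.25 and -1.94 ± 0.25 (edgeR adjusted p = 0.000251 and 2.25e-05) that were called without any one of the libraries compared. GCLM (ENSG00000023909, chr1:94350755-94375012, minus strand), the modifier subunit, had 12.5, 9.40 and 18.7 CPM with DMSO and 7.02, 5.85 and 12.4 CPM with triptolide in control cells. In knockdown cells it had 19.1, 12.8 and 26.7 CPM and then 7.24, 5.14 and 17.8 CPM. Library 3 was the highest and library 2 the lowest of all 6 groups, so the treatment groups overlapped although every pair went the same way. The log2 differences of -0.68 ± 0.47 and -0.95 ± 0.47 were not called (edgeR adjusted p = 0.288 and 0.122). With the block they were -0.71 ± 0.17 and -1.06 ± 0.17 and were called (adjusted p = 0.00203 and 3.09e-05), and without knockdown triptolide library 3 the knockdown difference was called without the block too (-1.67, adjusted p = 0.0141).

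TXNRD1 (ENSG00000198431, chr12:104609557-104744085, plus strand), the reductase that recycles thioredoxin, kept overlapping levels: 112, 94.2 and 117 CPM with DMSO and 107, 133 and 111 CPM with triptolide in control cells. In knockdown cells it had 132, 104 and 139 CPM against 104, 89.2 and 133 CPM. The log2 differences of 0.12 ± 0.23 and -0.20 ± 0.23 were not called by edgeR without the block (adjusted p = 0.744 and 0.531) or with it (0.471 and 0.273). Scaled to mitochondrial mRNAs, the knockdown difference was -1.66 and called (adjusted p = 0.00126).

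NQO1 (ENSG00000181019, chr16:69740899-69760571, minus strand), which reduces quinones to hydroquinones, had 169, 124 and 180 CPM with DMSO and 294, 280 and 300 CPM with triptolide in control cells. In knockdown cells it had 231, 139 and 283 CPM with DMSO and 357, 301 and 505 CPM with triptolide. The DMSO and triptolide libraries did not overlap in either line, and library 3 was the highest and library 2 the lowest of all 6 groups. The log2 differences were 0.89 ± 0.34 and 0.83 ± 0.34 (edgeR adjusted p = 0.0583 and 0.0669, not called). With the block they were 0.92 ± 0.19 and 0.85 ± 0.19 and were called (adjusted p = 0.00041 and 0.000737). DESeq2, which also has no block here, called them too (adjusted p = 0.0309 and 0.0396). Of its exon bases, 19.4% lie opposite a noncoding gene on the other strand.

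HMOX1 (ENSG00000100292, chr22:35776354-35790207, plus strand), which opens the heme ring and releases iron, was the lowest of the 8 in CPM. It had 3.49, 2.29 and 3.09 CPM with DMSO and 1.65, 0.967 and 2.10 CPM with triptolide in control cells, without overlap. In knockdown cells the DMSO libraries held 3.27, 1.63 and 8.28 CPM and the triptolide libraries 1.93, 0.794 and 2.07 CPM, which overlapped. The triptolide levels rest on 17 to 58 counts a library. The log2 differences of -0.91 ± 0.74 and -1.45 ± 0.74 were not called (edgeR adjusted p = 0.38 and 0.137), and with the block only the knockdown difference was, at -1.32 ± 0.44 (adjusted p = 0.014, against 0.0552 in control).

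**Figure D2:**
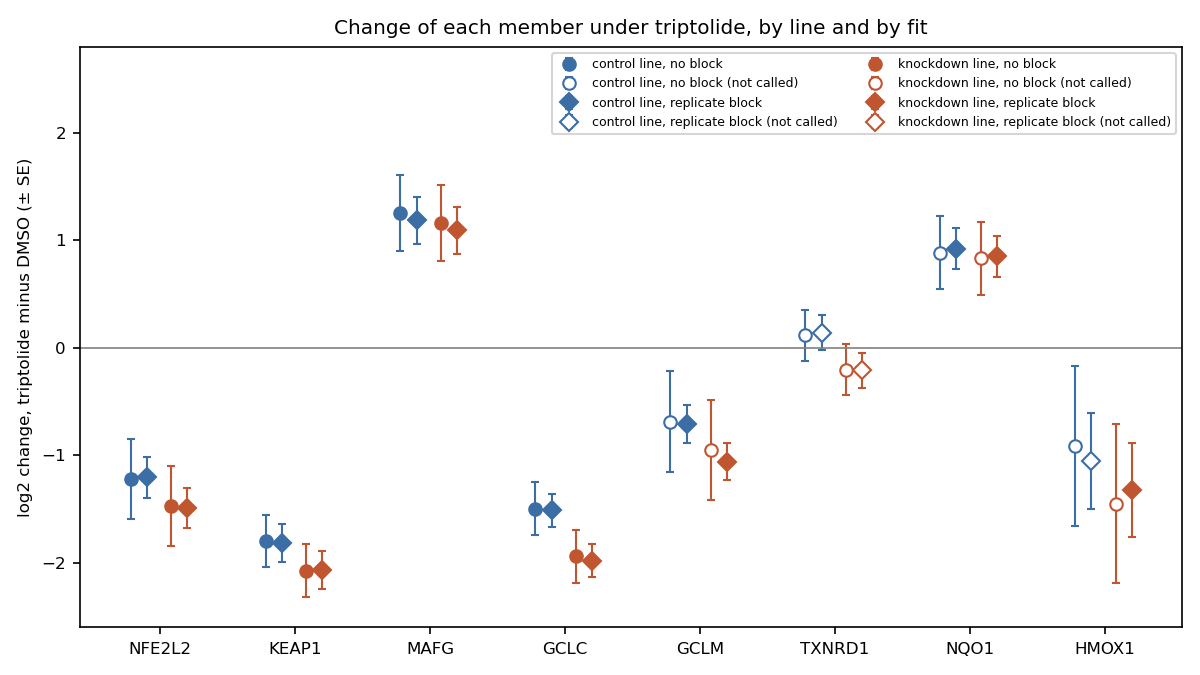
Log2 difference of triptolide from DMSO for the 8 tested genes (error bars: SE of the edgeR fit), in control (blue) and knockdown cells (orange), without the replicate block (circles) and with it (diamonds); filled symbols are called. KEAP1 lies lowest at -1.79 and -2.07, and MAFG highest at 1.25 and 1.16 (0.45 and -0.26 when scaled to mitochondrial mRNAs). The diamonds of GCLM and NQO1 in both lines, and of HMOX1 in knockdown cells, are filled where their circles are open.

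Counts with the block were 6 of 8 called in control cells (2 higher, 4 lower) and 7 of 8 in knockdown cells (2 higher, 5 lower), where it called 52.1% (26.1% higher, 26% lower) and 57.1% (29.1% higher, 28.1% lower) of all genes tested. The DMSO and triptolide libraries did not overlap for 6 of the 8 genes in control and 5 in knockdown cells, as for 43.1% and 48.7% of all genes tested. After triptolide the order per length had changed: in control cells MAFG, at 5.32 ± 2.35 CPM per kb, stood above GCLC at 4.13 ± 0.808 and KEAP1 at 3.86 ± 1.03, although the libraries of these neighbours overlapped. NQO1 reached 116 ± 4.13 CPM per kb in control and 154 ± 41.8 in knockdown cells, clear of TXNRD1 at 30.3 ± 3.71 and 28.1 ± 5.72.

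Whether the response to triptolide differed between the lines was tested as an interaction. It was negative for 8 of 8 genes, from -0.05 ± 0.48 for NQO1 to -0.54 ± 1.04 for HMOX1, with GCLC at -0.44 ± 0.34. The 8 values rest on the same libraries. With single libraries left out the sign changed for NFE2L2, MAFG, GCLM, NQO1 and HMOX1. The median over all genes tested was -0.02, and 45 of the 73 tested genes of the pathway list below were above 0. None of the 8 was called by edgeR (adjusted p = 1 for each, with the smallest unadjusted p 0.209), and 0 of all genes tested (0%) were called, 203 having an unadjusted p under 0.05. With the block 1 gene in all (0.0047%) was called, which was not among the 8, whose smallest unadjusted p was 0.0391. DESeq2 called 0 of the 8 and 1 gene in all.

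Knockdown against control asked whether the lines differ in these genes. None of the 8 was called by edgeR untreated, with DMSO or with triptolide (adjusted p = 1 for each and 0 with an unadjusted p under 0.05), where 0.0987%, 0.094% and 0.0658% of all genes tested were called. With the block, which called 0.578%, 0.606% and 0.644% of all genes, 0 of the 8 were called as well, and 1, 3 and 1 had an unadjusted p under 0.05, as did 1518, 1523 and 1770 of the 21285 genes tested, NFE2L2 untreated (0.00879), GCLM with DMSO (0.00524) and MAFG with triptolide (0.018) having the smallest. DESeq2 called 0 of the 8 in each. The median log2 differences of the 8 genes were 0.24 untreated, 0.22 with DMSO and -0.07 with triptolide, against -0.02, -0.01 and -0.04 over all genes tested.

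NFE2L2 had 30.9, 73.9 and 52.6 CPM in untreated control libraries 1 to 3 and 68.5, 75.9 and 65 CPM in untreated knockdown libraries. The pair of library 1 thus differed 2.21-fold, the others by 1.03 and 1.24, and the log2 difference was 0.41 ± 0.36 untreated, 0.21 ± 0.36 with DMSO and -0.04 ± 0.37 with triptolide. KEAP1, at 45.9, 27.4 and 29.5 CPM against 36.8, 31.5 and 35.1 CPM untreated, had 0.01, 0.03 and -0.24 with an SE of at most 0.24. MAFG had 15.3, 7.89 and 11.5 CPM in untreated control and 8.57, 9.46 and 7.53 CPM in untreated knockdown cells. It was lower in the knockdown library in 3 of 3 pairs with DMSO and with triptolide, at log2 differences of -0.45 ± 0.35 and -0.54 ± 0.35.

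Among the glutathione and thioredoxin genes, GCLC had 41.9, 58.5 and 57.1 CPM in untreated control and 44.8, 53.3 and 58.1 CPM in untreated knockdown cells, and its log2 differences were -0.01, 0.22 and -0.22 in the 3 treatments. GCLM had 13.9, 10.0 and 18.2 CPM against 15.3, 9.68 and 28.3 CPM, with log2 differences of 0.34, 0.53 and 0.26. With DMSO the GCLM level of the knockdown library was 1.52, 1.36 and 1.42 times that of control, 3 of 3 pairs higher. TXNRD1 had 116, 91.2 and 130 CPM against 111, 87.4 and 170 CPM untreated, and log2 differences of 0.13, 0.21 and -0.11. Without untreated knockdown library 3 the untreated differences were -0.17 for GCLM and -0.18 for TXNRD1.

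NQO1 had 150, 114 and 189 CPM in untreated control and 146, 129 and 352 CPM in untreated knockdown cells, a log2 difference of 0.47 ± 0.34 that was -0.14 without untreated knockdown library 3. It was higher in the knockdown library in 3 of 3 pairs with DMSO (1.36, 1.12 and 1.58 times control) and with triptolide (1.21, 1.08 and 1.68 times). Under triptolide the NQO1 groups did not overlap, which held for 1 of the 8 genes and for 5.99% of all genes tested. HMOX1 had 4.38, 0.974 and 3.46 CPM in untreated control and 3.02, 1.41 and 14.2 CPM in untreated knockdown cells. Knockdown library 3 stood apart there, at 4.12 times its control where the other pairs had 0.69 and 1.44, and at 2.68 times with DMSO against 0.94 and 0.71. The log2 differences of HMOX1 were 1.08 ± 0.72 untreated, 0.57 ± 0.71 with DMSO and 0.03 ± 0.76 with triptolide. Without knockdown library 3 of each treatment they were -0.41, -0.27 and -0.20.

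**Figure D3:**
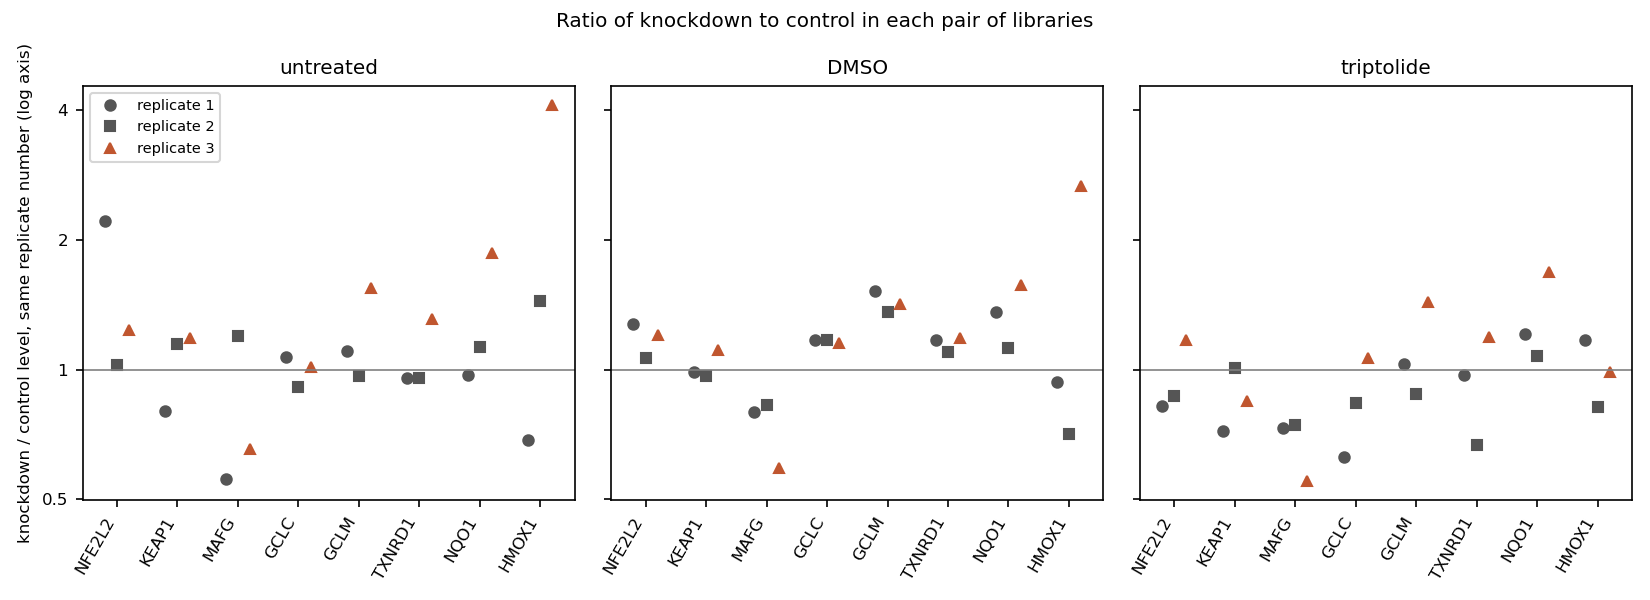
Ratio of the knockdown level to the control level of the same replicate number (log axis) for the 8 genes, untreated, with DMSO and with triptolide; each point is 1 pair of libraries and the line marks a ratio of 1. The pair of replicate 3 (triangles) reaches 4.12 for HMOX1 and 1.87 for NQO1 untreated, and the 3 GCLM pairs with DMSO lie between 1.36 and 1.52.

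The vehicle was compared with no treatment in each line. None of the 8 genes was called by edgeR in control or knockdown cells (adjusted p = 1 for each), and 0 of all genes tested (0%) were called in either line, with 121 and 208 genes at an unadjusted p under 0.05, none of them among the 8. With the block, and by DESeq2, 0 genes were called in either line as well, and NFE2L2 in knockdown cells was the 1 of the 8 with an unadjusted blocked p under 0.05 (0.0162). In knockdown cells the log2 difference of HMOX1 was -0.50, and between -1.34 and 0.99 with single libraries left out. That of NFE2L2 was -0.39 in knockdown cells, and that of GCLC was -0.25 in control cells. The values of DMSO libraries are shared by this comparison and the triptolide one.

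Replicate numbers carried part of the spread. Library 3 held the highest level in 6 of 6 groups for GCLM and NQO1, in 5 for TXNRD1 and in 4 for HMOX1, and library 2 the lowest in 6 of 6 for GCLM, NQO1 and HMOX1 and in 5 for TXNRD1. For KEAP1 library 2 was also the lowest in 6 of 6 groups, and for NFE2L2 it was the highest in 5. Library 1 was lowest in 6 of 6 groups for GCLC and in 5 for NFE2L2, and it was highest in 5 for MAFG and in 4 for KEAP1. What the replicate numbers stand for is not given in the labels beyond biological replicate.

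Genes whose levels moved most like each of the 8 were found among 14390 genes by the correlation of log2 (CPM + 1) after each group mean was subtracted, over 18 libraries. These libraries share replicate numbers, and the values describe likeness only. NQO1 went most with TIPIN (r = 0.95), STRAP and RCAN1, and TXNRD1 with UBE2N (r = 0.94), STRAP and SRPK1. GCLM went with POLE2 (r = 0.97) and IFT25, HMOX1 with RPL26L1 (r = 0.95), NKX1-2 and TPM1, and GCLC with PLK4 (r = 0.96), TAF7 and ZNF146. NFE2L2 went with VIRMA (r = 0.96), RAD50 and RABGAP1, KEAP1 with HSF1 (r = 0.94), SMTN and FARSA, and MAFG with GTF3C2-AS2 (r = 0.97), MIR3677HG and NOTCH4. Over the 6 group means, which mostly set triptolide apart, the nearest were SON, KIAA1671 and DTX2 for NFE2L2, GRWD1, PRDM4 and ZNF45 for KEAP1, and UPK2, LINC02878 and CD27-AS1 for MAFG. They were RBM7, RNF185 and TRIP12 for GCLC, IFIH1, RCAN1 and DTX3L for GCLM, TTBK2, C5orf24 and EIF4A3 for TXNRD1, RPS27P3, KAT2B and MARCHF3 for NQO1, and PI4K2A, EEIG1 and EXT1 for HMOX1, all with r between 0.94 and 1.00 (n = 6).

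The other genes of the pathway were followed from a list of 79, of which 73 passed the low-count filter. Relative to other RNA, genes of the list other than regulators were called higher with triptolide more often than lower. In control cells 20 of the 73 were called higher and 10 lower, with a median log2 difference of 0.43. In knockdown cells 25 were higher and 11 lower, with a median of 0.56. Both comparisons may be read against the 14.9% higher and 16% lower of all genes in control and 16.7% and 18.9% in knockdown cells. Without the block, 18 of the 55 tested genes that are not regulators were called higher and 1 lower in control cells. In knockdown cells 22 were called higher and 2 lower. With the block 28 were called higher and 4 lower in control and 33 higher and 4 lower in knockdown cells. The block called 26.1% of all genes tested higher and 26% lower in control and 29.1% and 28.1% in knockdown cells. Of the 18 regulators, 2 were higher and 9 lower in control and 3 higher and 9 lower in knockdown cells without the block, and 8 higher and 9 lower and 6 higher and 9 lower with it. The log2 differences of regulators were above 0 for 9 and below 0 for 9 in each line. These directions are relative to the median of all genes: scaled to mitochondrial mRNAs, 0 of the 73 were called higher and 17 lower in control and 0 higher and 32 lower in knockdown cells. With mitochondrial genes left out of the TMM scaling, 14 were higher and 11 lower in control and 23 higher and 11 lower in knockdown cells. Of the 21518 genes tested in that run, 3186 were called higher and 3711 lower in control and 3597 and 4267 in knockdown cells. The control count of 30 became 18 without control triptolide library 1, 17 without control DMSO library 3 and 49 (36 higher, 13 lower) with the block. With the block 52 were called in knockdown cells, 39 higher and 13 lower.

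The thioredoxin and peroxiredoxin genes were called higher for 4 of 5 in control and 5 of 5 in knockdown cells, with medians of 0.77 and 0.81. TXN, thioredoxin itself and the substrate of TXNRD1, rose from 129 ± 9.76 to 223 ± 8.33 CPM in control and from 146 ± 8.78 to 248 ± 9.87 CPM in knockdown cells (SD, n = 3). PRDX6, a peroxiredoxin that also acts on phospholipids, had log2 differences of 0.77 ± 0.15 and 0.83 ± 0.15 (edgeR adjusted p = 0.00103 and 0.000458). Among glutathione genes 2 of 13 were called higher in control and 5 of 13 in knockdown cells, and none was called lower. Without the block 14.9% and 16.7% of all genes tested were called higher. By estimate 1 of the 13 lay below 0 in control and 2 in knockdown cells. SLC7A11, the cystine transporter, was below in both, at -1.49 ± 0.78 and -1.26 ± 0.78 (edgeR adjusted p = 0.162 and 0.219, not called). With the block 7 of the 13 glutathione genes were called higher in control and 9 in knockdown cells, and none was called lower. The block called 26.1% and 29.1% of all genes tested higher. GSTA4, a transferase for lipid aldehydes, had 1.05 ± 0.29 and 0.95 ± 0.29, and GSTM2, another glutathione transferase, 0.83 ± 0.30 and 1.19 ± 0.31.

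Of the 13 quinone, carbonyl and xenobiotic enzymes, 5 were called higher in each line and none lower. With the block 8 were called higher in control and 6 in knockdown cells. The counts of this and the next lists may be read against the shares of all genes given above. EPHX1, the microsomal epoxide hydrolase, had log2 differences of 1.16 ± 0.25 and 1.23 ± 0.25 (edgeR adjusted p = 0.00183 and 0.000957). ALDH3A1, an aldehyde dehydrogenase, had 2.20 ± 0.58 and 2.24 ± 0.55 from a low level of 0.137 and 0.186 CPM with DMSO. Of 7 heme and iron genes, 3 were called higher in each line without the block. With it 3 were called higher in control and 5 in knockdown cells, and 1 was called lower in each. FTL, the ferritin light chain, rose from 92.6 ± 37.6 to 190 ± 62.3 CPM in control and from 111 ± 24.9 to 276 ± 95.0 CPM in knockdown cells, and FECH, the last enzyme of heme synthesis, by 0.81 ± 0.21 and 0.89 ± 0.20 on the log2 scale. Of 5 enzymes of NADPH supply, 3 were called higher in control and 4 in knockdown cells, among them IDH1 (1.095 ± 0.20 and 0.93 ± 0.20) and TALDO1 (0.67 ± 0.16 and 0.87 ± 0.16). None of the 6 exporters was called in either line without the block. With it ABCC5 was called lower in control cells (-0.36, edgeR adjusted p = 0.0228) and ABCC3 higher in knockdown cells (0.64, edgeR adjusted p = 0.0199), both named after their values were seen.

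Among regulators, EP300, an acetyltransferase coactivator, had log2 differences of -1.50 ± 0.24 and -1.86 ± 0.24, and BACH1, the repressor that competes with NRF2 for its elements, -1.17 ± 0.26 and -1.51 ± 0.26 (edgeR adjusted p = 0.0028 and 0.000347). CUL3, the scaffold of the KEAP1 ligase, CUL1, BTRC, GSK3B, CREBBP, SYVN1 and CAND1 also fell in both lines. SKP1, the adaptor of the CUL1 ligase, rose by 0.62 ± 0.20 and 0.74 ± 0.20, and NFE2L1, the related factor NRF1, by 0.51 ± 0.19 and 0.59 ± 0.19. TRIM16, a ubiquitin ligase on the list of other NRF2 targets, fell by 1.18 ± 0.32 and 1.34 ± 0.32 on the log2 scale. It was the 1 gene outside the regulators called lower in both lines without the block. Of the 6 other NRF2 targets, 1 was called higher and 1 lower in control cells, with a median log2 difference of -0.21. In knockdown cells 0 were higher and 2 lower, with a median of -0.22. With the block 1 was higher and 2 lower in control and 2 higher and 3 lower in knockdown cells. By estimate, 13 of the 55 genes outside the regulators lay below 0 in control cells and 42 above. In knockdown cells 11 lay below 0 and 44 above. Among those below was ABCB6, a transporter on the heme and iron list, at -1.75 ± 0.80 and -2.03 ± 0.84, not called in that fit.

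**Figure D4:**
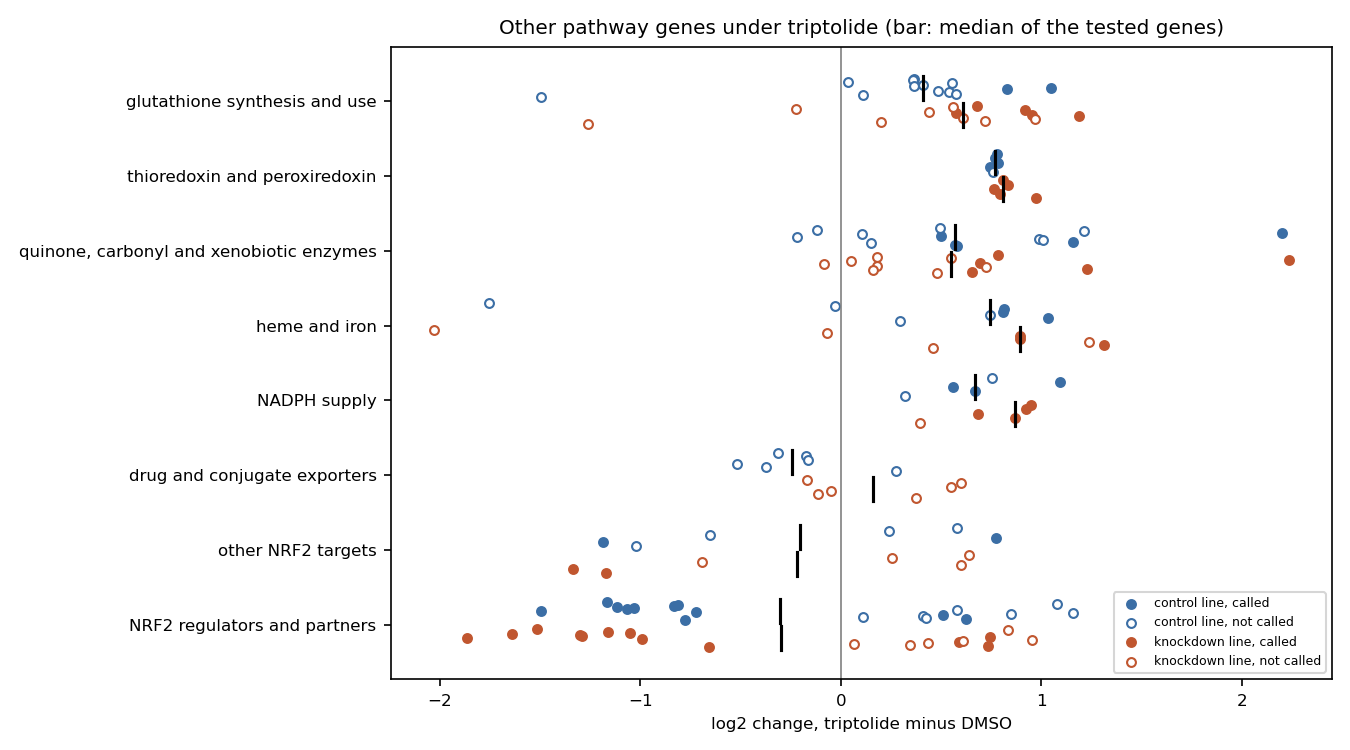
Log2 difference of triptolide from DMSO for the 73 tested genes of the pathway list, by group of genes, in control (blue) and knockdown cells (orange); filled points are called by edgeR without the block and bars mark the median of each group of genes. On this scale, relative to other genes, the filled points of the enzyme groups lie to the right of 0 and 9 filled points of the regulators in each line to the left. For the other NRF2 targets, 1 filled point lies to the right and 1 to the left in control cells. In knockdown cells 2 lie to the left and 0 to the right.

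Between the lines 0 of the 73 were called by edgeR without the block in any treatment, and 2 untreated, 1 with DMSO and 1 with triptolide had an unadjusted p under 0.05. With the block 1 was, with DMSO: ABCC2, an exporter of glutathione and glucuronide conjugates, which had 12.2, 9.92 and 5.90 CPM in control and 3.97, 2.76 and 4.54 CPM in knockdown libraries. Its log2 difference was -1.29 ± 0.28 (adjusted p = 0.0332), where the block called 0.606% of all genes tested.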

How the data were processed

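RNA of 18 ZR-75-1 libraries was made with a stranded total RNA kit, per the labels. Each deposited file holds raw counts per gene for 1 library; per the submitters' processing notes the authors used STAR 2.4.2a, hg19, HTSeq 0.6.1 and DESeq2 1.4.5 in R 3.1. The annotation release and strand setting of the counting are not given in the sources used here. Of 60252 gene IDs, 58822 (97.6%) matched GENCODE release 44 lifted to GRCh37. The 5 lines per file that tally unassigned reads, 24.9 to 35.4% of reads, were left out.

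Counts were scaled by TMM, filtered by group and tested, two-sided, by edgeR 4.0.16 (quasi-likelihood F test, R 4.3.3) in 1 fit of 6 groups with 12 residual degrees of freedom. SE is the log2 difference divided by the square root of F. p-values measure the spread between these libraries, labelled biological replicates. The fit was tested on simulated counts. Residuals of libraries with the same number correlated across genes at r of 0.43 to 0.85 (45 pairs), those with different numbers at -0.67 to -0.019 (90 pairs), and 18 of 18 went best with their own number, so a blocked fit (10 residual degrees of freedom) was added. No library was a copy, since chi-square per degree of freedom within groups was at least 62.0. DESeq2 1.42.0, other scalings, no filter, single libraries left out and only the libraries compared were the alternatives.

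The 9 genes, the gene lists and the naming rule were chosen with earlier results of these data known. The rule names each of the 9 genes, up to 2 list genes higher and 2 lower per list by p among those called in both lines under triptolide, list genes called elsewhere, and the 3 genes most like each of the 9 at a mean of at least 1 CPM. Others named (CUL3 and its neighbours in that sentence) were added to complete a count. SLC7A11 and ABCB6 were named after their values were seen. A marker list and 1 gene named by the rule are not reported here.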

Additional observations from a re-analysis of the deposited data

How the results depend on the processing

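Calls of KEAP1 and GCLC under triptolide, and of NFE2L2 in knockdown cells, held in the same direction under each alternative run, and 0 of the 8 genes were called between lines, for the interaction or for the vehicle under any of them. Values below are counts of calls, or log2 differences that changed sign, all of genes not called except MAFG for triptolide in knockdown cells. The cause of each change was not tested. HMOX1 rests on 17 to 58 counts a library with triptolide, and SRXN1, whose annotated exons are mostly shared with another gene, on 18 counts in all; the part of that overlap in its count was not tested.

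Replicate numbers pair the libraries, and the block changed no call of the 8 genes other than those given in the report. With the replicate block, genes called numbered 123 between lines untreated, 129 between lines with DMSO, 137 between lines with triptolide, 11090 for triptolide in control cells, 12163 for triptolide in knockdown cells and 1 for the interaction. Sign changes were HMOX1 -0.0067 between lines with triptolide. Calls on the pathway list numbered 49 for triptolide in control cells. Calls among the 8 genes numbered 7 for triptolide in knockdown cells.

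With DESeq2, genes called numbered 54 between lines untreated, 43 between lines with DMSO, 40 between lines with triptolide and 1 for the interaction. Reversed differences were KEAP1 -0.0015 for the vehicle in control cells. With no low-count filter, genes called numbered 91 between lines untreated, 74 between lines with DMSO, 60 between lines with triptolide, 3 for the interaction and 25 for the vehicle in knockdown cells. Opposite in sign were NFE2L2 0.0038 between lines with triptolide, TXNRD1 -0.0066 for triptolide in control cells. Calls on the pathway list numbered 19 for triptolide in control cells. Calls among the 8 genes numbered 7 for triptolide in knockdown cells. Totals of all genes called for triptolide without the filter are not given here, so these counts cannot be set against a share of all genes. Scaled to mitochondrial mRNAs, genes called numbered 13 between lines untreated, 8 between lines with triptolide and 12240 for triptolide in knockdown cells. Changed in sign were KEAP1 -0.20 and TXNRD1 -0.060 between lines untreated, MAFG 0.11 between lines with DMSO, TXNRD1 -0.66 for triptolide in control cells, MAFG -0.26 and NQO1 -0.65 for triptolide in knockdown cells, KEAP1 -0.18, NQO1 -0.061 and HMOX1 -0.048 for the vehicle in control cells, NFE2L2 0.14, MAFG 0.48, GCLC 0.52 and HMOX1 0.26 for the vehicle in knockdown cells. Calls on the pathway list numbered 17 for triptolide in control cells. With only the libraries compared, genes called numbered 5 between lines untreated, 4 between lines with DMSO and 8 between lines with triptolide. With RLE scaling the difference opposite in sign was KEAP1 -0.0013 for the vehicle in control cells. For triptolide in control cells it called 5 of the 8 genes, 2 higher and 3 lower. Of the 21285 genes tested it called 3489 higher and 3135 lower there.

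The next alternatives, which keep the replicate block and leave out 1 number throughout, were chosen after seeing the data. Blocked, without library 1 of every group, genes called numbered 48 between lines untreated, 42 between lines with DMSO and 34 between lines with triptolide. Reversed differences were NFE2L2 0.031 and HMOX1 -0.15 between lines with triptolide, MAFG 0.13 for the vehicle in control cells, TXNRD1 -0.054 and NQO1 -0.14 for the vehicle in knockdown cells. Calls among the 8 genes numbered 7 for triptolide in knockdown cells. Without library 2 of every group, genes called numbered 86 between lines untreated, 84 between lines with DMSO, 68 between lines with triptolide and 9919 for triptolide in control cells. Opposite in sign were KEAP1 -0.070 and GCLC 0.052 between lines untreated, NFE2L2 0.023 and TXNRD1 0.11 between lines with triptolide, TXNRD1 -0.11 for triptolide in control cells, KEAP1 -0.076 and HMOX1 -0.26 for the vehicle in control cells, MAFG 0.088 and TXNRD1 -0.030 for the vehicle in knockdown cells. Calls on the pathway list numbered 47 for triptolide in control cells. Calls among the 8 genes numbered 7 for triptolide in knockdown cells. Leaving out library 3 of every group, genes called numbered 56 between lines untreated, 55 between lines with DMSO and 40 between lines with triptolide. Changed in sign were KEAP1 -0.074, TXNRD1 -0.062 and HMOX1 -0.15 between lines untreated, KEAP1 -0.031 and HMOX1 -0.30 between lines with DMSO, GCLM -0.070 between lines with triptolide, HMOX1 0.31 for the interaction, KEAP1 -0.037 and TXNRD1 0.0025 for the vehicle in control cells, GCLC 0.064 and HMOX1 0.16 for the vehicle in knockdown cells. Calls among the 8 genes numbered 7 for triptolide in control cells. Except for triptolide in control cells without library 2, totals of all genes called for triptolide are not given for these runs. The counts of 7 therefore cannot be set against a share of all genes in the same run. In the blocked fit of all libraries that share was 52.1% in control and 57.1% in knockdown cells.

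Leaving out single libraries gave these ranges. Between lines untreated they were genes called 10 to 16, KEAP1 -0.13 to 0.27, GCLC -0.15 to 0.085, GCLM -0.17 to 0.63, TXNRD1 -0.18 to 0.32, NQO1 -0.14 to 0.72, HMOX1 -0.41 to 1.55. Between lines with DMSO they were genes called 12 to 16, NFE2L2 -0.042 to 0.49, KEAP1 -0.027 to 0.12, HMOX1 -0.27 to 0.96. Between lines with triptolide they were genes called 9 to 17, NFE2L2 -0.31 to 0.25, GCLC -0.41 to 0.045, GCLM -0.45 to 0.65, TXNRD1 -0.28 to 0.019, HMOX1 -0.22 to 0.35. For triptolide in control cells they were genes called 5137 to 6132, calls among the 8 genes 2 to 4, calls on the pathway list 17 to 28. For the interaction they were NFE2L2 -0.53 to 0.040, MAFG -0.61 to 0.33, GCLM -0.97 to 0.12, NQO1 -0.30 to 0.18, HMOX1 -0.93 to 0.30. For the vehicle in control cells they were NFE2L2 -0.46 to 0.14, KEAP1 -0.14 to 0.27, MAFG -0.25 to 0.22, GCLM -0.36 to 0.18, TXNRD1 -0.19 to 0.063, NQO1 -0.10 to 0.26, HMOX1 -0.41 to 0.41. For the vehicle in knockdown cells they were KEAP1 -0.032 to 0.12, MAFG -0.22 to 0.056, GCLC -0.11 to 0.072, GCLM -0.16 to 0.65, TXNRD1 -0.17 to 0.34, NQO1 -0.19 to 0.67, HMOX1 -1.34 to 0.99.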
